A study of Mus musculus with 4 samples.

Results

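Genes that make, degrade and sense prostaglandin E2 were described in mouse breast tumor cells that express Dll1, with and without targeted radiation. The 8 genes, Ptgs1, Ptgs2, Ptges, Ptges2, Ptges3, Hpgd, Ptger2 and Ptger4, were chosen by name. Each matched 1 row of the count table of 54532 genes, and all 8 passed the filter on low counts that left 15993 genes for testing. The irradiated group held 2 libraries of mCherry-positive cells from MMTV-PyMT tumors of C57BL/6 mice that received targeted radiation at day 30. The unirradiated group held 2 libraries of the same kind of cells from tumors without radiation. In all 4 libraries the tumors carried the polyoma middle T oncogene under the MMTV promoter, which is active in mammary epithelium, and mCherry stood for Dll1, a Notch ligand. The tumors arose after MFP injection, as the design text names it, of PyMT-Dll1+ cells. The radiation dose and the time from radiation to collection do not stand in the labels. Tumor cells were enriched with antibodies against CD45, CD31 and TER119 before the mCherry sort, and poly(A) RNA was sequenced. Whether the libraries of a group came from different animals is not stated, so the p-values below measure only the spread between these samples, which may be technical. The sample titles carry a code that splits exactly as the treatment does, so whatever it stands for cannot be told apart from radiation.

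Prostaglandin E2 is made in steps. Phospholipases free arachidonic acid from membranes, the cyclooxygenases encoded by Ptgs1 and Ptgs2 convert it to prostaglandin H2, and prostaglandin E synthases turn that into prostaglandin E2. The enzyme encoded by Hpgd oxidizes and so inactivates prostaglandin E2. The receptors encoded by Ptger2 and Ptger4 couple to the stimulatory G protein and raise cyclic AMP. In breast tumors Ptgs2 has long been studied as the inducible, inflammation-linked source of prostaglandins.

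Library totals ran from 18903631 to 19931303 counts in the irradiated group and from 16811888 to 20817997 in the unirradiated group. The irradiated libraries differed far more from each other than the unirradiated ones did, with a biological coefficient of variation across genes of 39.8% against 5.93%. The summed level of 10 epithelial markers was 12005 and 9785 CPM (counts scaled to the size of the library) in irradiated 1 and irradiated 2, against 11710 and 11258 CPM in the unirradiated libraries. Dll1 itself was at 146 and 80.2 CPM against 130 and 129 CPM. Irradiated 2 also stood apart by high markers of other cells. Its summed macrophage markers were at 667 CPM, against 90.0 CPM in irradiated 1 and 30.0 and 27.8 CPM in the unirradiated libraries, and its summed endothelial markers were at 639 CPM, against 40.3, 24.7 and 21.9 CPM. Values are therefore given for each library below.

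Of the 8 genes, Ptgs2 had the clearest difference between the groups, and Ptgs1 had the largest but least even one. Ptges and Ptger2 were also higher in each irradiated library than in either unirradiated one, and Ptges2 was lower in each. Ptges3, Hpgd and Ptger4 overlapped between the groups. No gene passed: the edgeR quasi-likelihood test, at a Benjamini-Hochberg adjusted p under 0.05, called 0 of the 8 and 0 of 15993 genes higher (0%) and 0 lower (0%). At an unadjusted p under 0.05 it held 2 of the 8, Ptgs1 and Ptgs2, against 1480 of all tested genes (9.25%). Both had the higher level in irradiated cells, as 6.82% of all tested genes did at that p, where 2.44% had the lower. In 4 of the 8 genes each irradiated library exceeded both unirradiated ones, where 20.3% of all tested genes did so, and in 1 each was below both, where 20.0% were. The median log2 fold change was 0.37 for the 8 genes and 0.0040 for all tested genes.

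**Figure D1:**
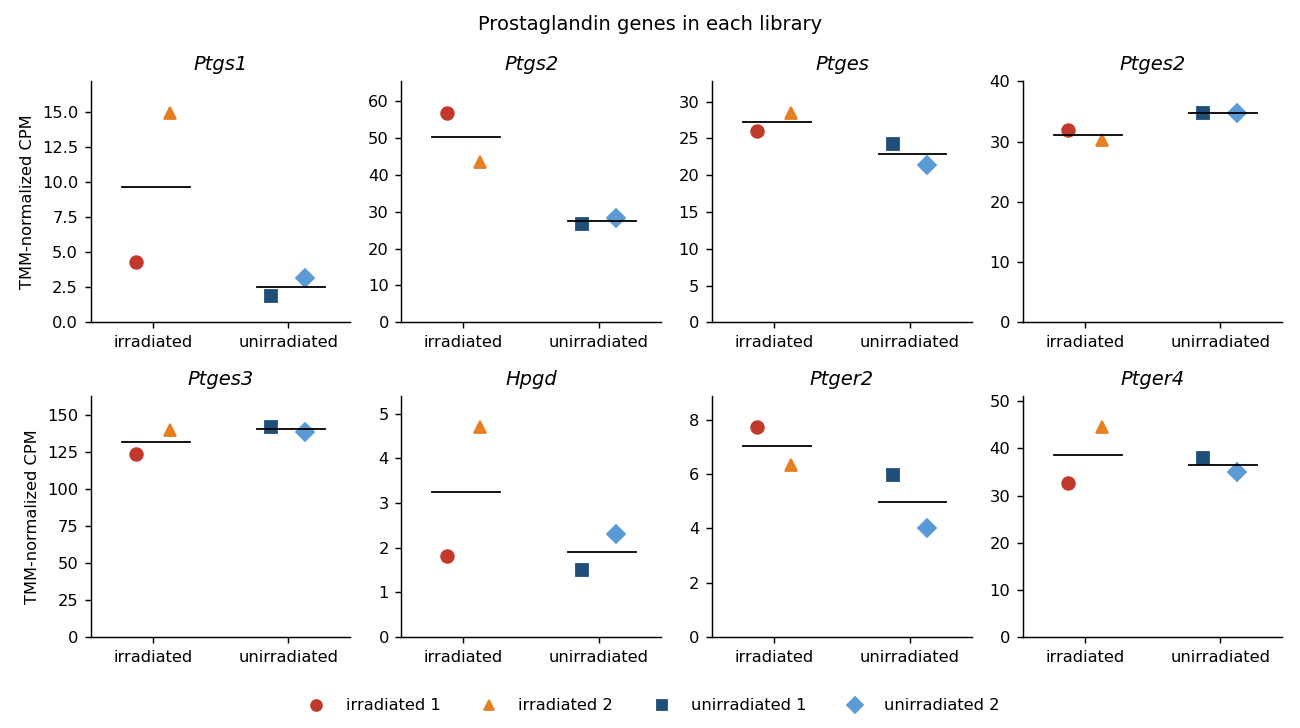
TMM-normalized CPM of the 8 prostaglandin genes in each library, with irradiated libraries on the left of each panel and unirradiated ones on the right; black lines are group means, n = 2 libraries each, and each axis starts at 0. Ptgs2 was at 56.9 and 43.6 CPM in irradiated cells, above 26.8 and 28.3 CPM in unirradiated cells, whereas Ptges3 and Ptger4 overlapped between the groups.

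Ptgs2 encodes the inducible cyclooxygenase. It lies on the plus strand of chromosome 1 (mm10, chr1:150100031-150108227), and its deposited counts were 1128 and 817 in irradiated cells, against 556 and 480 in unirradiated cells. After scaling this was 50.2 ± 9.44 CPM against 27.5 ± 1.10 CPM (SD, n = 2 each). Neither irradiated library overlapped with the unirradiated pair, irradiated 1 standing at 2.07 times and irradiated 2 at 1.58 times the unirradiated mean. The log2 fold change was 0.87 (SE 0.17), with an unadjusted p of 0.00342 that 90 genes undercut and an adjusted p of 0.489 by the edgeR quasi-likelihood test. DESeq2, which called 437 genes higher (2.73%) and 56 lower (0.350%), called Ptgs2 higher at an adjusted p of 0.0123. Without irradiated 1 its log2 fold change was 0.65 and without irradiated 2 it was 1.04. Both passed in fits that take the spread from the unirradiated pair alone, and those fits called 15.9% and 11.9% of genes higher and 7.95% and 13.9% lower. With no filter on low counts, where 4.86% of genes were called higher and 0.381% lower, Ptgs2 and Ptgs1 were among those called higher.

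The sequence around the annotated start of Ptgs2 is shown beside that of Ptgs1 because the pair encode the inducible and the constitutive form of the same enzyme. Each runs from 250 bases before to 30 bases after the RefSeq start (GRCm38.p6, plus strand), and capitals mark motif matches on either strand.
Ptgs2 (chr1:150099781-150100060): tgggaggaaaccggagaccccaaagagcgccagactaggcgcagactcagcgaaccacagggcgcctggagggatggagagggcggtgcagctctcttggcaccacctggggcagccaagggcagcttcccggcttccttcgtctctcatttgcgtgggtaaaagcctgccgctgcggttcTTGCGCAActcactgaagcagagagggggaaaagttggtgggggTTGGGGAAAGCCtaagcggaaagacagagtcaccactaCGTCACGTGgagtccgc
Ptgs1 (chr2:36230176-36230455): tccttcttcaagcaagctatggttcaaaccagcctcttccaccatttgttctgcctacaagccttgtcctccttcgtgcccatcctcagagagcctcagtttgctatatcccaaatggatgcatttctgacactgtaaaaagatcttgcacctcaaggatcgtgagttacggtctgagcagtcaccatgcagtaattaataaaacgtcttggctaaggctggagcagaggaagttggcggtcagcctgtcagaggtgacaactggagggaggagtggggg
Of 6 motifs searched, the Ptgs2 window held 4. It had GGGNNNNNCC of NF-kB, which 48.5% of 27025 RefSeq promoter windows of that length also held, TTNNGNAA of C/EBP (39.2%), TGACG of the cyclic AMP response element (20.1%) and CACGTG of the E-box (6.89%). The NF-kB match overlaps a C/EBP match, and the cyclic AMP response element match, which reads CGTCA on this strand, overlaps the E-box. The last 2 lie after the annotated start, at bases 14 to 18 and 17 to 22. Neither TGANTCA of AP-1 (7.57%) nor TATAAA of the TATA box (13.7%) was in the Ptgs2 window, and the Ptgs1 window held none of the 6. Bases outside these windows were not searched for the motifs. The Ptgs2 window was 61.4% G or C and the Ptgs1 window 49.6%, against a median of 52.5% over all windows. Matches to such short words are common, as the shares show, and they do not show binding.

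Ptgs2 mRNA is short-lived, and its stability is set by AU-rich elements in its 3′ untranslated region. In the longest coding transcript of GENCODE M21 that region held 14 copies of ATTTA, a number reached by 2.5% of 20656 genes. The other 7 genes held from 0 copies in Ptgs1 and Ptges to 6 in Ptger2. The 30 bases of Ptgs2 with the most copies (GRCm38, chr1:150105794-150105823) begin 12 bases past the stop codon, with ATTTA in capitals.
Ptgs2 AU-rich element: ccatATTTATTTATTTAtgtgaagaATTTA
Among 10 genes of proteins that bind such elements, 0 passed the test in either direction, 2 lay above and 2 below, close to the 20.3% and 20.0% of all tested genes, and the median log2 fold change was 0.051. Zfp36, which encodes tristetraprolin, a protein that speeds the decay of AU-rich mRNAs, was at 5887 and 5281 CPM against 6355 and 6048 CPM. Zfp36l2, of the same family, was at 1219 and 980 CPM against 905 and 918 CPM (log2 fold change 0.27, SE 0.17). Tial1, which encodes an RNA-binding relative of Tia1, was at 137 and 120 CPM against 146 and 152 CPM. Elavl1, which encodes the stabilizing protein HuR, was at 75.1 and 77.8 CPM against 75.2 and 74.3 CPM. The groups did not overlap for Zfp36, Zfp36l2 and Tial1, and they did for Elavl1.

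Ptgs1 encodes the constitutive cyclooxygenase, abundant in platelets, mast cells and some macrophages. It lies on chromosome 2 (chr2:36230426-36252272, plus strand). It had 85 and 281 counts in the irradiated libraries (exact 95% Poisson intervals 67.9 to 105 and 249 to 316), against 39 and 54 counts in unirradiated cells (27.7 to 53.3 and 40.6 to 70.5). These intervals cover counting error only. On the CPM scale Ptgs1 was at 4.29 and 14.98 against 1.88 and 3.18, so both irradiated libraries lay above, but irradiated 2 lay 3.49 times above irradiated 1. The log2 fold change was 1.93 (SE 0.68, edgeR unadjusted p = 0.0371, adjusted p = 0.513). Without irradiated 2 it was 0.77 and without irradiated 1 it was 2.57, in fits that take the spread from the unirradiated pair alone. An antisense gene, Gm43621, shares 3.81% of the exon bases of Ptgs1, and the library kit did not keep strand, but it had at most 5 counts in any library.

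Ptgs1 and the summed markers of several other cells were highest in irradiated 2, whereas the summed platelet markers were not. Within the unirradiated pair Ptgs1 was higher in unirradiated 2. There the fibroblast, neutrophil, mast cell, pericyte and platelet sums were higher too, whereas the macrophage, endothelial and lymphocyte sums were lower. Of 10 macrophage markers 9 were higher in each irradiated library than in either unirradiated one, where 20.3% of all tested genes did so. Of those 9, Mrc1, at 8 and 3 unirradiated counts, and Fcgr1, at 1 and 0, passed the filter only through the irradiated group. Adgre1, at 13 and 7, also needed an irradiated library to pass it. The filter thus favors the place of these genes above. The macrophage sum was 90.0 and 667 CPM against 30.0 and 27.8 CPM, and 0 of the 10 were without counts in all libraries. Of 8 endothelial markers 7 lay above, with a sum of 40.3 and 639 CPM against 24.7 and 21.9 CPM. Summed fibroblast markers were at 779 and 5736 CPM against 582 and 596 CPM, neutrophil markers at 10.5 and 94.1 CPM against 5.00 and 6.55 CPM, and lymphocyte markers at 18.5 and 103 CPM against 5.25 and 4.42 CPM. A sort with CD45 and CD31 antibodies for tumor cells is meant to remove leukocytes and endothelial cells, yet these markers were detected. The part of such cells in the Ptgs1 values was not tested, and more of them cannot be told apart from more RNA per cell. The summed platelet markers were at 14.6 and 14.2 CPM against 10.8 and 14.5 CPM, with Gp1bb and Gp6 at 0 in all libraries. Most of that sum was Itga2b, at 14.1 and 10.1 CPM against 9.82 and 12.9 CPM. Pf4 was at 0.0504 and 2.93 CPM against 0.289 and 0.118 CPM, highest in irradiated 2. Gp1ba was at 0.454 and 1.17 CPM against 0.577 and 1.42 CPM, highest in unirradiated 2. Gp9 had 0 and 0 counts against 2 and 1, and Ppbp had 0 and 1 against 0 and 0. Summed mast cell markers were at 2.02 and 7.73 CPM against 0.337 and 0.708 CPM, with Fcer1a at 0 in all libraries. Of these, Hdc, which other myeloid cells also express, was at 0.757 and 7.52 CPM against 0.241 and 0.413 CPM. Cma1, Mcpt4, Cpa3, Tpsb2 and Ms4a2 had 12, 7, 3, 2 and 1 counts in irradiated 1. In irradiated 2 they had 1, 0, 2, 1 and 0 counts. Unirradiated 1 had 2, 0, 0, 0 and 0, and unirradiated 2 had 3, 0, 0, 2 and 0. Summed pericyte markers were at 212 and 367 CPM against 188 and 208 CPM. Notch3, which overlapped between the groups, gave 175 and 151 CPM of the irradiated sums and 144 and 163 CPM of the unirradiated ones. Rgs5, Pdgfrb, Cspg4, Kcnj8 and Abcc9 were each highest in irradiated 2, at 132, 41.5, 12.7, 11.4 and 18.2 CPM. In irradiated 1 they stood at 17.3, 7.11, 4.84, 2.22 and 6.00 CPM. Their levels were 20.0, 8.18, 4.67, 4.43 and 6.83 CPM in unirradiated 1, then 19.5, 8.61, 4.54, 4.90 and 7.37 CPM in unirradiated 2.

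**Figure D2:**
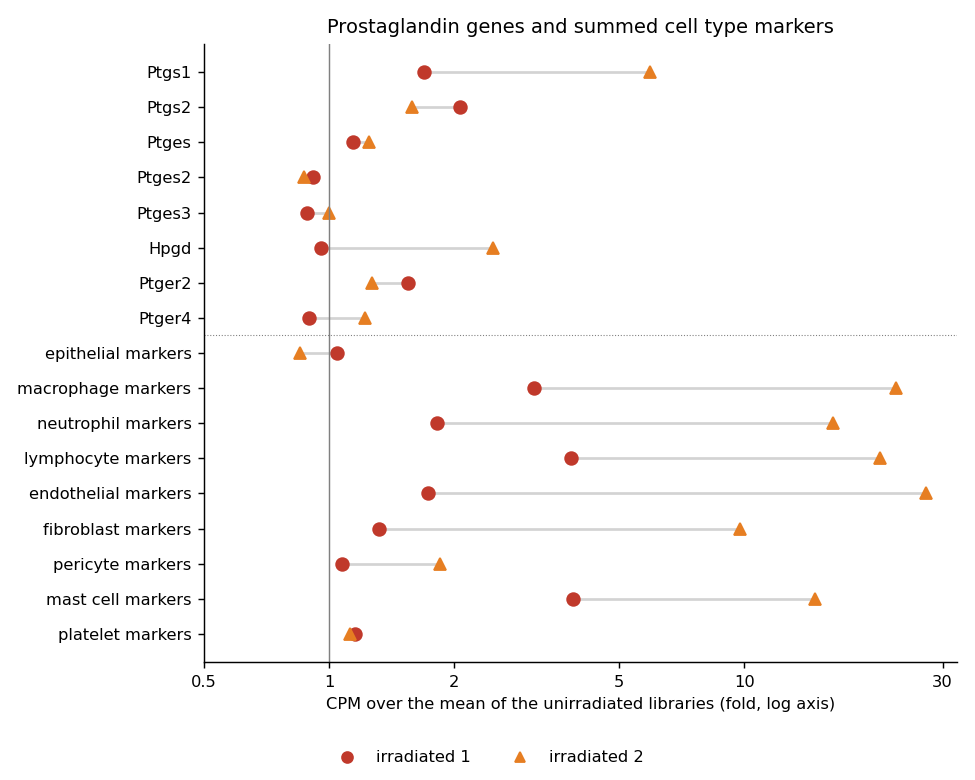
CPM of each prostaglandin gene and summed CPM of each cell type marker list in irradiated 1 (circles) and irradiated 2 (triangles), as a fold over the mean of the unirradiated libraries, on a log axis. Ptgs1 and Hpgd lay farther right in irradiated 2, at 5.92 and 2.47 times, as the macrophage and endothelial sums did at 23.1 and 27.4 times, whereas Ptgs2 was higher in irradiated 1, at 2.07 times.

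The share of Ptgs2 in the cyclooxygenase level, taken as Ptgs2 over the sum of Ptgs1 and Ptgs2 in CPM per kilobase of gene length, was 91.8% in irradiated 1 and 71.1% in irradiated 2, against 92.4% and 88.3% in the unirradiated libraries. Ptgs2 was thus the more abundant cyclooxygenase transcript in every library. The groups overlapped, and the difference of means was -8.83 percentage points (exact permutation test, two-sided p = 0.667, where 2 against 2 libraries cannot go below 0.333). Without irradiated 2 the difference was 1.52 percentage points, so its sign rests on that library.

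The prostaglandin E synthases differed little between the groups. Ptges encodes the inducible microsomal enzyme that works closely with the Ptgs2 product. It lies on the minus strand of chromosome 2 (chr2:30889471-30929863) and was at 26.0 and 28.5 CPM in irradiated cells, against 24.3 and 21.4 CPM in unirradiated cells. Both irradiated libraries lay above, and the log2 fold change was 0.26 (SE 0.15, edgeR adjusted p = 0.672). Ptges2 encodes a second membrane-associated synthase that is expressed constitutively. It lies on the plus strand of the same chromosome (chr2:32395896-32405772) and was at 31.9 and 30.3 CPM against 34.8 and 34.7 CPM, below in both irradiated libraries (log2 fold change -0.16, SE 0.12, edgeR adjusted p = 0.756). Ptges3 encodes the cytosolic synthase, which is also the Hsp90 co-chaperone known as p23. It lies on chromosome 10 (chr10:128058954-128077272) and was at 124 and 140 CPM against 142 and 139 CPM, which overlapped (log2 fold change -0.088, SE 0.11, edgeR adjusted p = 0.877). Its processed pseudogene Ptges3-ps had 191 and 245 counts against 265 and 181, so reads may be shared with that copy and the Ptges3 level is uncertain to that extent.

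Within a library, the log2 ratio of Ptges to Ptges2 per kilobase was 0.071 and 0.27 in irradiated cells, against -0.16 and -0.33 in unirradiated cells. Ptges was the higher of the pair per kilobase in both irradiated libraries and Ptges2 in both unirradiated ones. By counts alone Ptges2 was the higher in every library, so this order rests on the deposited gene lengths. The groups did not overlap, and the difference of means was 0.42, with the smallest p the design allows (exact permutation test, two-sided p = 0.333). No scaling between libraries enters this ratio. Gene length is the same in every library, so it drops out of the difference of 0.42.

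**Figure D3:**
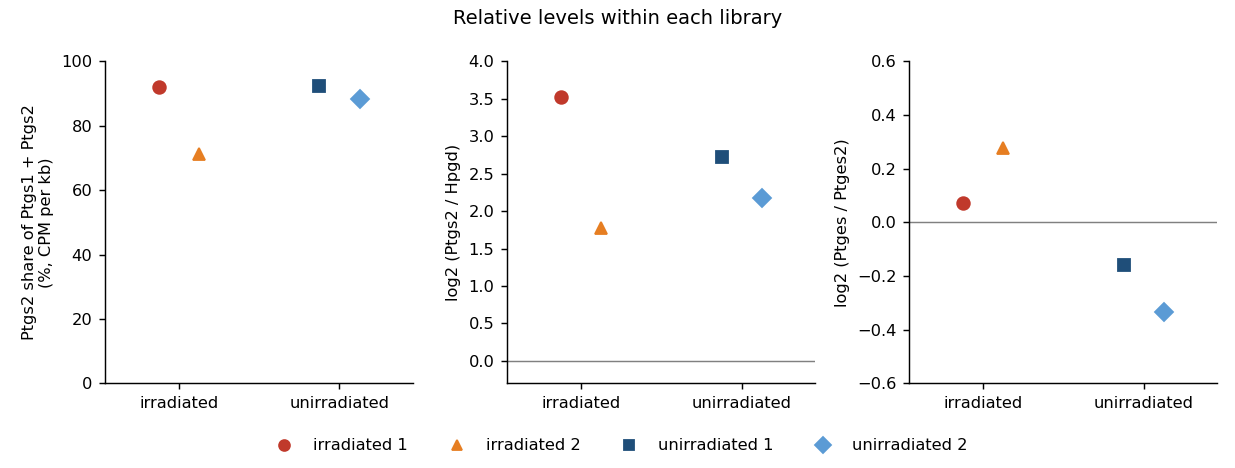
Relative levels within each library, irradiated on the left and unirradiated on the right of each panel: the Ptgs2 share of the cyclooxygenase level in percent, the log2 ratio of Ptgs2 to Hpgd and the log2 ratio of Ptges to Ptges2, all per kilobase of gene length. The groups separate in the last panel, with 0.071 and 0.27 against -0.16 and -0.33, and overlap in the others.

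Hpgd encodes 15-hydroxyprostaglandin dehydrogenase, which begins the breakdown of prostaglandin E2. It lies on chromosome 8 (chr8:56294585-56321043, plus strand) and had few counts, 36 and 88 in irradiated cells, against 31 and 39 in unirradiated cells. Irradiated 1 lay within the unirradiated range and irradiated 2 above it, at 1.82 and 4.69 CPM against 1.49 and 2.30 CPM (log2 fold change 0.78, SE 0.59, edgeR adjusted p = 0.767). Without irradiated 2 the log2 fold change was -0.059 and without irradiated 1 it was 1.31 and passed (edgeR adjusted p = 0.00137), in a fit that called 15.9% of genes higher. The macrophage and endothelial sums given above were likewise highest in irradiated 2, and their part in the Hpgd value was not tested. The log2 ratio of Ptgs2 to Hpgd per kilobase was 3.53 in irradiated 1 and 1.77 in irradiated 2, against 2.72 and 2.18 in the unirradiated libraries. The irradiated libraries held both the highest and the lowest ratio, with a difference of means of 0.20 (exact permutation test, two-sided p = 1.00). Its sign turned without irradiated 1, at -0.68, and without unirradiated 2, at -0.073.

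Both cyclic AMP-linked receptors of prostaglandin E2 were transcribed, Ptger4 more than Ptger2 per kilobase. Ptger4 encodes the EP4 receptor (chr15:5206661-5244187, minus strand) and was at 32.6 and 44.5 CPM in irradiated cells, against 37.9 and 34.97 CPM in unirradiated cells. The irradiated libraries lay on either side of the unirradiated pair (log2 fold change 0.080, SE 0.18, edgeR adjusted p = 0.934), and without irradiated 2 the log2 fold change was -0.18. Its exons share 15.3% of their bases with the pseudogene Gm15937 on the opposite strand, which had 0 counts, and 1.23% with Ttc33. Ptger2 encodes the EP2 receptor (chr14:44988195-45003820, plus strand) and had 153 and 119 counts against 124 and 68. On the CPM scale it was at 7.72 and 6.34 against 5.97 and 4.01, with both irradiated libraries above (log2 fold change 0.49, SE 0.33, edgeR adjusted p = 0.736). Without irradiated 2 it passed, at a log2 fold change of 0.60 and an edgeR adjusted p of 0.0335, in a fit that called 11.9% of genes higher. The antisense gene Gm17173 shares 4.74% of the exon bases of Ptger2 and had 4 counts in each irradiated library against 22 and 23 in unirradiated cells, so reads in the shared bases cannot be assigned.

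**Figure D4:**
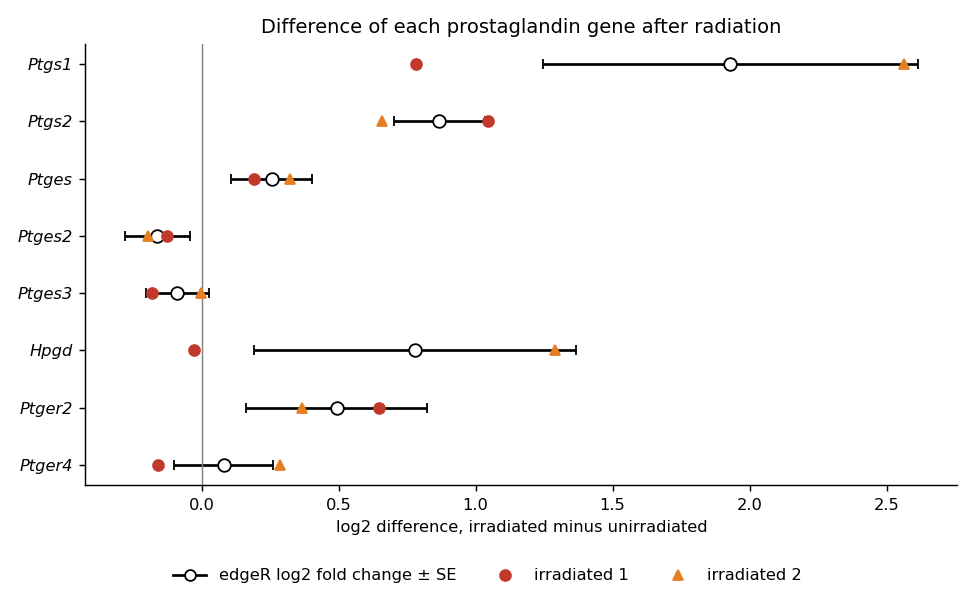
Log2 difference of each prostaglandin gene, irradiated minus unirradiated: open circles with bars are the edgeR log2 fold change and its SE, and colored symbols are the log2 CPM of each irradiated library minus the unirradiated mean. For Ptgs2 both libraries lie right of 0, at 1.05 and 0.66, whereas for Hpgd they lie at -0.029 and 1.29 and for Ptger4 at -0.16 and 0.29.

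Per kilobase of gene length the order of the 8 genes was led by Ptges3 in every library, at 59.6 ± 5.24 CPM per kilobase in the irradiated group and 63.3 ± 0.908 in the unirradiated group (SD, n = 2 each). In the irradiated group Ptgs2 followed at 10.97 ± 2.06, then Ptges at 6.94 ± 0.448, Ptges2 at 6.15 ± 0.216 and Ptger4 at 5.79 ± 1.26 CPM per kilobase. In the unirradiated group Ptges2 came second, at 6.88 ± 0.0141, ahead of Ptgs2 at 6.01 ± 0.240, Ptges at 5.81 ± 0.511 and Ptger4 at 5.48 ± 0.308 CPM per kilobase. In the unirradiated libraries the values of Ptges overlapped with those of Ptgs2 and of Ptger4, and in the irradiated ones those of Ptger4 overlapped with those of Ptges and of Ptges2. In both irradiated libraries Ptgs2 lay above Ptges, Ptges2 and Ptger4. Ptgs1, Hpgd and Ptger2 were lowest in every library, at 2.48 ± 1.95, 1.93 ± 1.21 and 1.35 ± 0.187 CPM per kilobase in the irradiated group against 0.652 ± 0.238, 1.13 ± 0.340 and 0.961 ± 0.266 in the unirradiated group, and their order among themselves differed between libraries.

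The phospholipases act upstream of the cyclooxygenases. Of 17 phospholipases that can release arachidonic acid 9 had enough counts to test, 0 passed in either direction, 0 lay above and 2 below, against 20.3% and 20.0% of all tested genes. The median log2 fold change was -0.0051, and single genes differed more, such as Pla2g15, a lysosomal phospholipase gene, at 9.84 and 20.3 CPM against 11.5 and 9.79 CPM. Pla2g4a, the cytosolic phospholipase that supplies most arachidonic acid for prostaglandins, lies 138740 bases from Ptgs2 on chromosome 1. It was at 57.6 and 56.5 CPM in irradiated cells, against 62.2 and 62.5 CPM in unirradiated cells (log2 fold change -0.13, SE 0.097, edgeR adjusted p = 0.767), and both irradiated libraries lay below, unlike those of its neighbor. Pla2g4b, another member of the group, was at 1.46 and 1.39 CPM against 2.31 and 2.77 CPM (log2 fold change -0.83, SE 0.38, edgeR adjusted p = 0.599). Pla2g2a and Pla2g2f, secreted phospholipases, had no counts in any library. Pla2g2a is disrupted in the C57BL/6 strain.

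The genes of other prostanoids were mostly low and highest in irradiated 2. Of 7 other synthases 4 could be tested, 0 passed and 1 lay above, where 20.3% of all tested genes did. That gene, Tbxas1, encodes thromboxane synthase and had 20 and 76 counts in irradiated cells, against 1 and 2 in unirradiated cells. It passed the filter only through the irradiated group, which favors its place above, so its difference is given as counts, with no call. Ptgis, the prostacyclin synthase gene, had 2 counts in irradiated 1 and 202 in irradiated 2, against 25 and 13. Hpgds, which encodes the hematopoietic prostaglandin D synthase, had 4 and 125 counts against 6 and 2 and was not tested. Macrophages and endothelium express these genes, and their markers were highest in the same library; their part in these values was not tested.

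Of the 7 other prostanoid receptors 3 could be tested, 0 passed, 2 lay above and 1 below, where 20.3% and 20.0% of all tested genes did. The prostacyclin receptor gene Ptgir had 23 and 79 counts in irradiated cells, against 10 and 2 in unirradiated cells. The thromboxane receptor gene Tbxa2r had 18 and 33 against 7 and 1. Both passed the filter only through the irradiated group, which favors their place above, so they are given as counts, with no call. Ptger1, which encodes the EP1 receptor, was at 1.01 and 1.23 CPM against 1.73 and 1.77 CPM (log2 fold change -0.65, SE 0.42). Ptger3, the EP3 receptor gene, had 3 and 42 counts against 10 and 7, and Ptgdr had none in any library. Among the receptors of prostaglandin E2, Ptger4 was thus the most abundant per kilobase in every library.

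Of the genes of transport and further breakdown, Slco2a1 encodes the carrier that takes prostaglandins up into cells for inactivation. It was at 184 and 199 CPM in irradiated cells, against 182 and 196 CPM in unirradiated cells, which is 13.6 and 14.7 against 13.4 and 14.5 CPM per kilobase, above every one of the 8 genes but Ptges3 in each library. Cbr1 of the same list was higher still, at 16.4 and 22.6 against 26.1 and 24.8 CPM per kilobase. Of the 5 genes on that list 0 passed, 1 lay above and 1 below, close to the 20.3% and 20.0% of all tested genes, with a median log2 fold change of -0.071. Abcc4, an exporter of prostaglandins, was at 2.37 and 10.6 CPM against 1.59 and 1.18 CPM (log2 fold change 2.21, SE 0.78, edgeR adjusted p = 0.510). Cbr1, a carbonyl reductase that acts on prostaglandin E2, was at 42.0 and 57.6 CPM against 66.7 and 63.4 CPM (log2 fold change -0.39, SE 0.18, edgeR adjusted p = 0.589).

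The lipoxygenases compete with the cyclooxygenases for arachidonic acid. Of 9 genes of that branch 6 could be tested, 0 passed, 4 lay above and 0 below, against 20.3% and 20.0% of all tested genes, and the median log2 fold change was 0.67. Alox5ap encodes the activating protein of leukotriene synthesis and is a gene of myeloid cells. It was at 0.958 and 8.85 CPM in irradiated cells, against 0.674 and 0.472 CPM in unirradiated cells (edgeR adjusted p = 0.514). At 14 and 8 unirradiated counts it needed an irradiated library to pass the filter, which favors its place above. Aloxe3, known from the lipid barrier of the epidermis, had 3.23 and 2.19 CPM against 1.40 and 1.30 CPM (log2 fold change 1.00, SE 0.42, edgeR adjusted p = 0.555). Alox5 itself had 7 and 65 counts against 1 and 2 and was not tested.

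**Figure D5:**
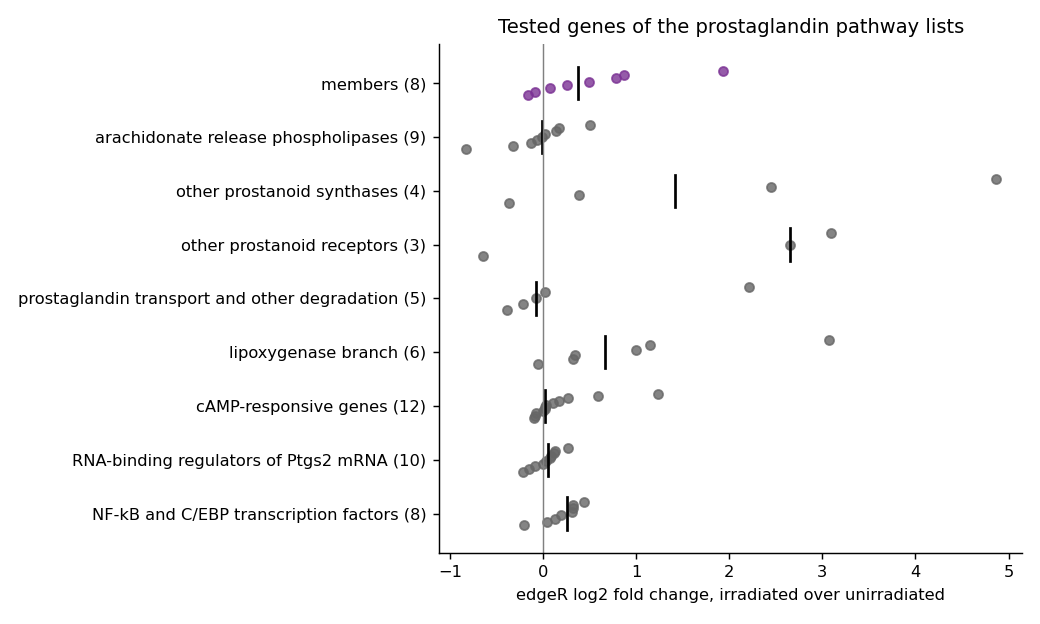
edgeR log2 fold change, irradiated over unirradiated, of each tested gene of the prostaglandin genes and of each pathway list, with the number tested in brackets and a black bar at the median. The phospholipase, transport, cyclic AMP and RNA-binding lists have medians between -0.071 and 0.051, and no gene shown passed the test over all genes.

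Genes that respond to cyclic AMP, the messenger of the Ptger2 and Ptger4 products, were read from a list of 12. Of these 0 passed, 2 lay above and 0 below, against 20.3% and 20.0% of all tested genes, with a median log2 fold change of 0.026. Pde10a, a phosphodiesterase gene, was at 2.22 and 2.72 CPM in irradiated cells, against 0.914 and 1.18 CPM in unirradiated cells (log2 fold change 1.24, SE 0.42, edgeR adjusted p = 0.503). Areg, which encodes the growth factor amphiregulin, was at 8.88 and 14.7 CPM against 6.74 and 8.91 CPM, with overlap between the groups. Among 8 genes of NF-kB and C/EBP transcription factors, families known to act on the Ptgs2 promoter, 0 passed, 5 lay above and 1 below, against 20.3% and 20.0% of all tested genes, with a median of 0.26. Rel was at 52.3 and 47.0 CPM against 37.0 and 42.5 CPM (log2 fold change 0.32, SE 0.13, edgeR adjusted p = 0.544), and Cebpb at 646 and 874 CPM against 593 and 528 CPM (log2 fold change 0.44, SE 0.20, edgeR adjusted p = 0.582). Cebpd was the 1 that lay below, at 553 and 556 CPM against 646 and 630 CPM.

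The genes most like Ptgs2 over the 4 libraries, by the root mean square difference of centered log2 CPM among 10061 genes, were Fnip2 at 0.043, P4ha2 at 0.053 and Pdgfb at 0.057. Fnip2 encodes a folliculin partner, P4ha2 a collagen prolyl hydroxylase and Pdgfb a platelet-derived growth factor chain. Pdgfb was at 111 and 82.1 CPM in irradiated cells, against 56.3 and 56.1 CPM in unirradiated cells. Those nearest to Ptgs1 were Plac8, Meg3 and Rasa4, with larger differences of 0.13, 0.15 and 0.16, and those nearest to Ptges were Tmem199, Glis2 and Zfp521, at 0.011, 0.013 and 0.013. With 4 libraries such likeness is a description of values only.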

How the data were processed

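RNA of sorted mCherry-positive tumor cells was measured in 2 irradiated and 2 unirradiated libraries. The authors deposited raw counts per gene; the submitters' processing notes name the mm10 build, the aligner STAR 2.5, the counter HTSeq 0.6.1 and DESeq2, but neither an annotation release nor options for counting. Gene lengths are those deposited. One deposited table holds all 4 libraries and matches the other 3 tables at all 54532 genes. Per the labels the kit was non-directional. Positions are as in the files; those of all 8 genes are the same in GENCODE M21 (GRCm38).

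Counts were fitted with edgeR 4.0.16 in R 4.3.3: filterByExpr (minimum count 10, minimum total 15), TMM scaling, the two-sided quasi-likelihood test, and Benjamini-Hochberg adjustment over 15993 genes at 0.05. The SE is the log2 fold change over the root of the F statistic. CPM values were scaled by TMM; on the log2 scale a prior count of 2 was added. A gene lies above or below when both irradiated libraries are on that side of both unirradiated ones. Single ratios were tested with an exact permutation test. The steps were tested on simulated data.

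Genes, lists and tests were chosen with earlier results of these data known. The text names the 8 genes, the 2 genes of each list with the smallest p, and the 3 genes of most like pattern for the 3 members with the smallest p, among tested genes with an average log2 CPM of at least 3. Slco2a1, Zfp36, Pla2g15, Hdc, Itga2b, Pf4, Elavl1, Hpgds, Ptger1, Ptger3, Alox5 and Cebpd were added after their values were seen. So were Mrc1, Fcgr1, Adgre1, Gp1ba, Gp9, Ppbp, Cma1, Mcpt4, Cpa3, Tpsb2, Ms4a2, Notch3, Rgs5, Pdgfrb, Cspg4, Kcnj8 and Abcc9. Sequences are from RefSeq (GRCm38.p6), which held all 8 genes, and GENCODE M21; the planned comparison of proteins was not made. Alternatives were other scalings, filters and thresholds, a replicate block, leaving out 1 library at a time, DESeq2 1.42.0 and limma-voom 3.58.1.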

Additional observations from a re-analysis of the deposited data

How the results depend on the processing

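Under 104 alternatives over the 8 genes, 94 kept the direction and the side of the threshold, 8 passed it and 2 turned. Ptgs1 passed with no filter on low counts (log2 fold change 1.92) and Ptgs2 passed there (0.85) and by DESeq2 (0.88). Without irradiated 1 Ptgs1, Ptgs2 and Hpgd passed, and without irradiated 2 Ptgs2 and Ptger2. Leaving out a library gave log2 fold changes of 0.77 to 2.57 for Ptgs1, 0.65 to 1.04 for Ptgs2, 0.16 to 0.34 for Ptges, -0.21 to -0.14 for Ptges2, -0.19 to -0.016 for Ptges3, -0.059 to 1.31 for Hpgd, 0.22 to 0.80 for Ptger2 and -0.18 to 0.27 for Ptger4. It gave -19.2 to 1.52 percentage points for the Ptgs2 share, -0.68 to 1.08 for the ratio of Ptgs2 to Hpgd and 0.32 to 0.52 for that of Ptges to Ptges2. Fits without an irradiated library take the spread from the unirradiated pair and assume that the lone library varies like it. Over all genes, no filter called 1338 genes higher and 105 lower, DESeq2 437 and 56, and leaving out a library 0 to 2713 and 0 to 2355. Over the pathway lists, no filter called 7 genes higher, DESeq2 called 1 (Tbxas1, which passed the filter only through the irradiated group), and leaving out a library 0 to 17 higher and 0 to 6 lower. The main fit tested 57 of the 75 list genes. With no filter 4.86% of all genes were called higher and 0.381% lower, and by DESeq2 2.73% and 0.350%. Of the 7 list genes called with no filter, Tbxas1, Hpgds, Alox5 and Ptgir had at most 10 counts in either unirradiated library. The other scalings, the stricter filter, limma-voom and a threshold of 0.1 called 0 list genes. The cause of these differences was not tested.

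The replicate numbers were not shown to pair the libraries: across genes, the deviations of same-numbered libraries had a correlation of -0.0992. With the number as a replicate block 2 genes were called higher, neither of them named here, and no call of the 8 genes differed. Depth limits Hpgd, at 31 to 88 counts; for Ptgs1 the counting intervals of the irradiated libraries do not meet, so these differ by more than counting error.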
